A study of Mus musculus with 24 samples.

Results

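Gene expression was compared in mouse cells labelled Cre between day 7 and day 0 of induction with a thermogenic cocktail, with 3 libraries on each day. These 6 libraries are part of a series of 24 libraries in 8 groups. The genes described are those with an FPKM of at least 1 in at least 3 of the 6 libraries, which kept 11766 of the 24825 genes listed. FPKM is the number of reads on a gene per kilobase of gene length and per 1000000 counted reads of the library. Of the rest, 7580 genes were at 0 in each of the 6 libraries. At the edge of this rule, 531 genes reached 1 FPKM in exactly 3 libraries and were kept, and 310 reached it in exactly 2 and were not. The same rule kept 11821 genes in ctrl, 11923 in Cre + NFIA and 11636 in Cre + NFIA Δpro#3.

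All 4 cell types came from Nfia flox/flox mice, in which loxP sites flank exon 2 of Nfia, were grown from the inguinal fat's stromal vascular fraction, and carried SV40 large T antigen. That fraction is what remains of fat once mature adipocytes are removed, precursors included. The age and sex of the mice are not given in the sources used here. Cells labelled Cre received a retrovirus for Cre recombinase, and ctrl cells an empty retrovirus. In Cre + NFIA cells Cre was joined by full-length NFIA with a FLAG tag, and in Cre + NFIA Δpro#3 cells by a tagged NFIA without a C-terminal proline-rich segment. At confluence the cells were first given isobutylmethylxanthine, indomethacin, dexamethasone, insulin, triiodothyronine (T3) and rosiglitazone, and then insulin, T3 and rosiglitazone until day 7. Day 0 was sampled before this induction. Whether the 3 libraries of a group came from separate cultures is not given in the sources used here. The p-values rest on the spread between libraries of the same group, shared over all 8 groups, and that spread may be technical. How many times each cell type was derived is also not given, so the construct and the cell line that carries it cannot be told apart.

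Adipocyte differentiation is driven by a cascade of transcription factors. CCAAT/enhancer-binding proteins β and δ act early, and PPARγ and C/EBPα then hold each other on and switch on the genes of lipid uptake, triglyceride synthesis, lipid droplets and secreted adipokines. Rosiglitazone is a ligand of PPARγ, and the cells of thermogenic fat additionally use fatty acid oxidation and, in the activated state, the uncoupling protein UCP1. NFIA belongs to the nuclear factor I proteins, which bind DNA, and the comparison asks which of these changes took place in cells in which Nfia was targeted.

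Cre libraries held 10.16, 7.73 and 7.99 M reads at day 0 and 11.99, 9.15 and 11.04 M at day 7 (replicates 1, 2 and 3, M for 1000000). The first principal component of all 24 libraries held 71.4% of the variance. On it the Cre day 0 libraries lay together at -43.65, -43.3 and -43.91, whereas those of day 7 were spread out at 19.97, 26.79 and 8.85. Nfia (chr4:97439425-97868605, plus strand, mm9) was at 6.81, 5.34 and 6.49 FPKM at day 0 and at 10.7, 10.1 and 9.49 FPKM at day 7. These values count reads of the whole gene, of which exon 2 is a small part, so they do not check the label Cre. The paper checked it by other means. It reports efficient recombination by PCR of genomic DNA, and almost no NFIA left in Cre-expressing cells by RT-qPCR and Western blot. Among markers of other cell types, the endothelial markers Tie1, Emcn and Cldn5 and the macrophage marker Adgre1 were at 0 in all 6 libraries. The summed FPKM of 6 lymphocyte markers was at most 0.126, with 5 of the 6 at 0. Summed over 7 endothelial markers it was 5.60 to 6.62 at day 0 and 2.65 to 2.78 at day 7, over 8 macrophage markers 12.9 to 14.6 and 8.43 to 10.1, and over 5 Schwann cell markers 2.07 to 2.59 and 2.62 to 2.86. The sum over 6 mesothelial markers was 1.22 to 2.21 at day 0 and 3.79 to 7.44 at day 7, with Msln and Lrrn4 at 0.

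Genes of lipid storage and other adipocyte genes rose in Cre cells by day 7, and chemokine and interferon genes fell. Of the 11766 genes, 344 (2.92%) were called, that is, had a Benjamini-Hochberg adjusted p under 0.05 by limma and changed at least 3-fold on the log2(FPKM + 1) scale. The higher genes outnumbered the lower ones, with 285 (2.42%) higher and 59 (0.501%) lower. Quantile normalization of the libraries gave 245 higher and 93 lower. The median change of the higher genes was 2.31 on the log2 scale and that of the lower genes -1.92, beside 0.05 over all genes tested. A change of at least 16-fold was seen in 32 higher and 2 lower genes. Without a fold threshold, 6232 genes (53%) passed, 3552 (30.2%) rising and 2680 (22.8%) falling. That larger count split differently under other scalings, into 3129 rising and 3152 falling with size factors (medians of ratios) and 2795 and 3683 after quantile normalization. In 122 of the higher and 9 of the lower genes, 1 FPKM was reached only in the 3 libraries of the day on which the gene was high, so the filter itself selected them. At 1 FPKM or more in all 6 libraries were 135 higher and 45 lower genes. Just inside the 3-fold threshold were Tmem37 (1.59) and Rasl11a (-1.59), and just outside it were Tshr (1.58) and Il13ra1 (-1.58).

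**Figure D1:**
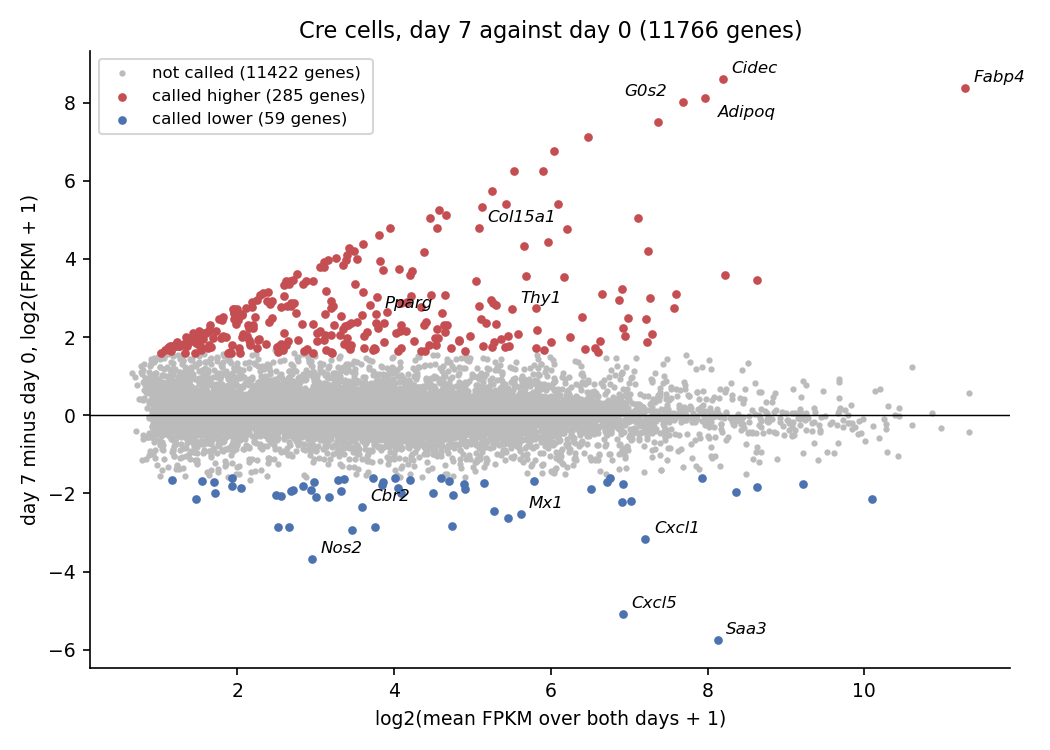
Change between day 0 and day 7 in Cre cells (y axis, log2(FPKM + 1), means of 3 libraries a day) against the mean level over both days (x axis, log2). Each point is a gene; the 285 red genes were called higher and the 59 blue genes lower, and the largest increases, in Fabp4, Cidec and Adipoq, lie further from 0 than the largest decreases, in Saa3 and Cxcl5.

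The 4 largest increases were in Cidec, Fabp4, Adipoq and G0s2. Cidec, which codes for a protein that lets lipid droplets fuse (chr6:113374628-113385754, minus strand, mm9), was at 0.401, 0.451 and 0.437 FPKM at day 0 and at 604, 784 and 365 FPKM at day 7. It rose by 8.61 on the log2 scale (SE 0.29, limma adjusted p = 2.71e-15). Fabp4, the fatty acid binding protein of adipocytes (chr3:10204347-10208576, minus strand), was at 18.4, 9.30 and 13.2 FPKM and then at 5365, 6611 and 2914 FPKM, a rise of 8.37 (SE 0.30, limma adjusted p = 6.03e-15). Its mean at day 7 ranked 1 among the genes tested. In these 2 genes the highest day 0 library lay far below the lowest day 7 library. Adipoq, the adipokine adiponectin (chr16:23146609-23158101, plus strand), was at 0.879, 0.735 and 0.610 FPKM at day 0 and at 522, 655 and 320 FPKM at day 7 (log2 change 8.11, SE 0.31, limma adjusted p = 1.39e-14). G0s2, an inhibitor of the lipase PNPLA2, was at 0.233, 0.767 and 0.594 FPKM and then at 433, 544 and 247 FPKM (8.0, SE 0.28). For all 4 genes replicate 2 was the highest and replicate 3 the lowest of the day 7 libraries. The rest of the 15 largest increases were Gpd1 (7.50), which makes the glycerol backbone of triglycerides, the droplet coat gene Plin1 (7.11), the fatty acid transporter gene Cd36 (6.76), Aldh1a7 (6.26), Adig (6.25), Mrap (5.73), Adh1 (5.41), Cdo1 (5.41), the adipokine genes Retn (5.32) and Cfd (5.27), and Slc36a2 (5.11). The 15 genes were taken only from genes whose groups did not overlap, so this trait was set by the choice. Of all genes tested 6693 (56.9%) did not overlap. Many of these genes had few reads at day 0 (Cidec 7, 6 and 6, and G0s2 2, 5 and 4), so that the size of their fold change rests on small counts there, whereas Fabp4 had 127, 49 and 72.

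**Figure D2:**
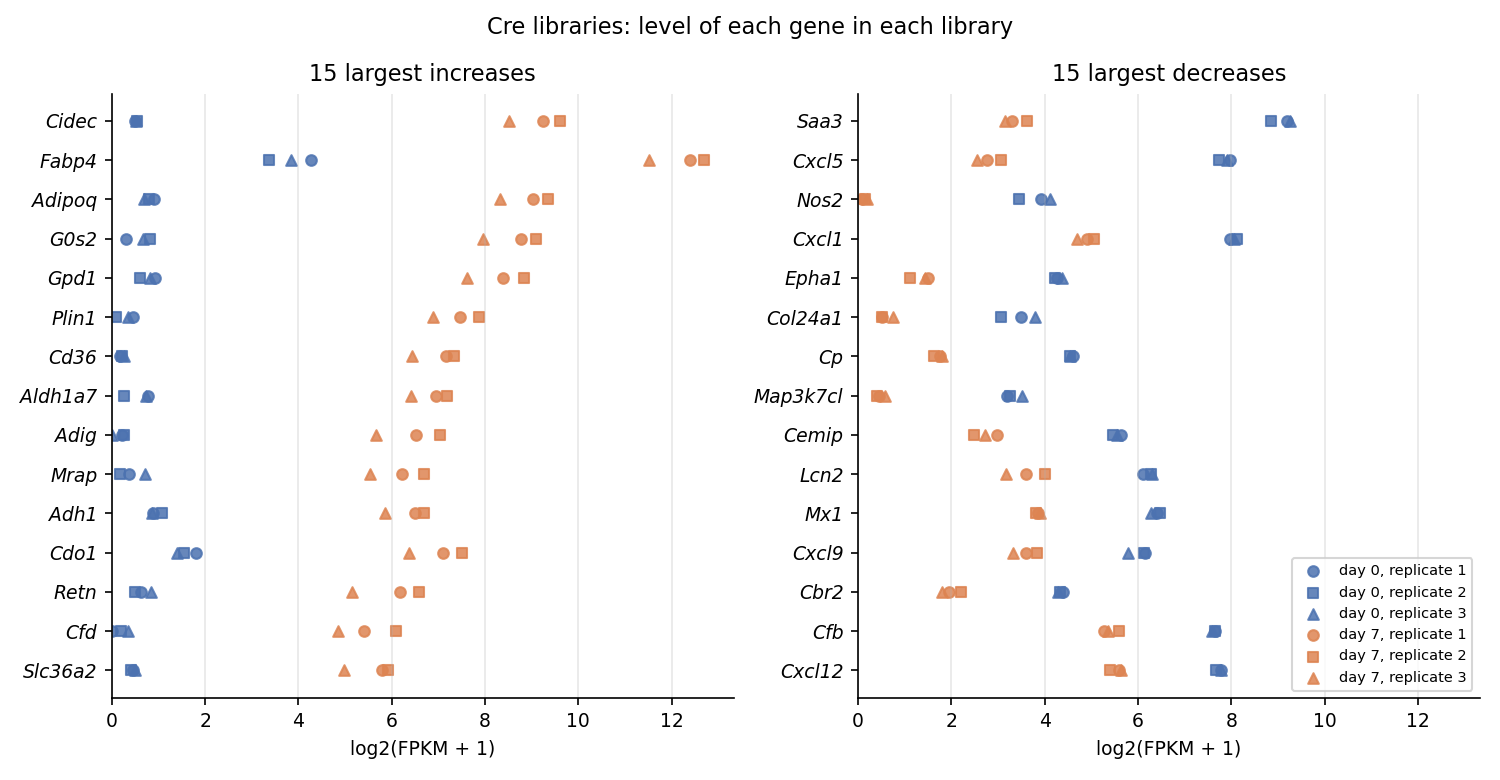
Level of the 15 genes with the largest increase (left) and the 15 with the largest decrease (right) in each Cre library, in log2(FPKM + 1) on the x axis. Blue points are day 0 and orange points day 7, and the shape gives the replicate. Only genes whose days do not overlap were eligible, so none of the 30 shows overlap. For the increases the day 7 points of replicate 3 (triangles) lie below those of replicates 1 and 2.

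The sequences before the start sites of extreme genes are shown because these genes changed most. They are the 250 bases before each RefSeq start (build GRCm38.p6), printed for the 2 largest increases and the 2 largest decreases that the RefSeq table held, with matches to the motifs below in capitals. Fabp4, Cxcl5 and Nos2 had no entry. Cidec has 2 annotated starts, and its windows are on the minus strand at chr6:113435761-113436010 and chr6:113434765-113435014. Those of Adipoq (chr16:23146286-23146535, plus strand), Saa3 (chr7:46715677-46715926, minus strand) and Cxcl1 (chr5:90890995-90891244, plus strand) follow.
Cidec, first start: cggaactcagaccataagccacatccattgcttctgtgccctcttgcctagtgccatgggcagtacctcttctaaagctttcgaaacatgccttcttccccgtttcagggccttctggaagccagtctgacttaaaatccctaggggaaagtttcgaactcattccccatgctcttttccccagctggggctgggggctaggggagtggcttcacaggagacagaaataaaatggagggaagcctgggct
Cidec, second start: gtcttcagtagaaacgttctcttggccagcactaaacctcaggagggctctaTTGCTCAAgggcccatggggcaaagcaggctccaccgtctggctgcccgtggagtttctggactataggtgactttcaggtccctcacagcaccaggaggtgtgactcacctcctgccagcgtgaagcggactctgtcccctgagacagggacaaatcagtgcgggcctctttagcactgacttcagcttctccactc
Adipoq: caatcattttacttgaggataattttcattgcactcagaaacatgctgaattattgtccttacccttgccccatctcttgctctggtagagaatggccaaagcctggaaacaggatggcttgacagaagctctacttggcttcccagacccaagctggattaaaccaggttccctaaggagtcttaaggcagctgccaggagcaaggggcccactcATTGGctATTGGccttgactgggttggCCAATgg
Saa3: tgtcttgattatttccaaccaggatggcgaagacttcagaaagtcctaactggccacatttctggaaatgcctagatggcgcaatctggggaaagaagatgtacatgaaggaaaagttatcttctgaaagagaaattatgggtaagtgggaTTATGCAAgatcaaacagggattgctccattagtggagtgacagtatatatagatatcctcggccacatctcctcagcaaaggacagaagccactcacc
Cxcl1: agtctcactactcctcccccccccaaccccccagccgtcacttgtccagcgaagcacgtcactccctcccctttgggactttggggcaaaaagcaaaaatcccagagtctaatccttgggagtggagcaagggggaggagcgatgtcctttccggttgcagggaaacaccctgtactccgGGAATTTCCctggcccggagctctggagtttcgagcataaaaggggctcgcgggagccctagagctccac

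The motifs searched were TATAAA on the gene's strand and, on both strands, CCAAT (the CCAAT box), TTGCNNAA (a C/EBP type), AGGTCA (a nuclear receptor half-site), TTGGCA (a nuclear factor I half-site) and GGANTTTCC (an NF-κB type). No 2 of these letter strings contain each other, but matches may overlap. Adipoq had 3 CCAAT boxes close to its start. The second Cidec window had 1 C/EBP-type match, Saa3 had 1 as well, and Cxcl1 had 1 NF-κB-type match. Of the 285 higher genes 185 were matched by symbol (238 windows), and of the 59 lower genes 39 (47 windows), beside 32851 windows in all. Of the genes tested 9078 were matched (11557 windows). The C/EBP type was in 7.98% of the windows of higher genes and 25.5% of those of lower genes, against 7.23% of the windows of tested genes and 9.56% of all windows. The nuclear receptor half-site was in 14.3% and 23.4%, against 10.5% of tested and 14% of all windows. The nuclear factor I half-site was in 12.2% and 10.6%, against 9.51% and 12.3%. The NF-κB type was in 1.68% and 6.38% (4 of 238 and 3 of 47 windows), against 1.11% and 1.07%. Its share in lower genes thus rests on 3 windows, and a gene with more than 1 start has more than 1 window. The CCAAT box was in 40.3% and 31.9%, against 35.8% and 33.8%. TATAAA was in 7.56% and 14.9%, against 3.64% and 7.59%. These shares are a description of letters in a short window, and binding was not measured here.

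Among the largest decreases were those of acute phase and chemokine genes. Saa3, an acute phase serum amyloid (chr7:53967368-53971046, minus strand, mm9), was at 582, 459 and 610 FPKM at day 0 and at 8.79, 11.3 and 7.84 FPKM at day 7. It fell by 5.74 on the log2 scale (SE 0.20, limma adjusted p = 3.65e-15). Cxcl5, a chemokine that attracts neutrophils (chr5:91188325-91190651, plus strand), was at 251, 211 and 240 FPKM and then at 5.74, 7.39 and 4.81 FPKM, and fell by 5.09 (SE 0.13, limma adjusted p = 3.56e-17). In both genes each day 7 library was far below each day 0 library. Nos2, the inducible nitric oxide synthase, was at 14.0, 9.96 and 16.2 FPKM at day 0 and at 0.0582, 0.102 and 0.148 FPKM at day 7, a fall of 3.68 (SE 0.14). Cxcl1, another neutrophil chemokine, went from 249.9, 278 and 267 FPKM to 29.1, 32.5 and 24.7 FPKM and fell by 3.17 (SE 0.09). The other 11 of the 15 largest decreases were Epha1 (-2.94), Col24a1 (-2.86), the copper transport gene Cp (-2.85), Map3k7cl (-2.85), Cemip (-2.82), Lcn2 (-2.64), Mx1 (-2.53), Cxcl9 (-2.44), Cbr2 (-2.34), the complement gene Cfb (-2.22) and Cxcl12 (-2.20).

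The transcription factors of adipogenesis did not move as 1 group. Pparg (chr6:115311239-115440419, plus strand, mm9) was at 3.35, 3.01 and 2.16 FPKM at day 0 and at 24, 27.0 and 16.3 FPKM at day 7, a rise of 2.59 (SE 0.18, limma adjusted p = 1.06e-10). Cebpa was at 7.79, 9.65 and 8.34 FPKM and then at 69.3, 85.7 and 49.0 FPKM, a rise of 2.82 (SE 0.18, limma adjusted p = 2.88e-11). Both genes were thus higher in each day 7 library than in any day 0 library. Of 20 adipogenic regulators tested in a list of 24, 13 rose and 4 fell (adjusted p under 0.05), and 6 were called higher and 0 lower. Their median was 0.56, against 0.05 over all genes tested, of which 30.2% rose, 22.8% fell and 2.42% were called higher. Mlxipl and Zbtb16 were under 1 FPKM in each day 0 library, so the filter kept them for their day 7 level. The largest rises were in Mlxipl (3.84), the carbohydrate response factor ChREBP, and in Nr1h3 (3.71), the oxysterol receptor LXRα. Zbtb16 rose by 2.12 and the precursor factor gene Zfp423 by 1.85. Cebpd, which acts early in the cascade, fell by 1.53, and Klf4 fell by 0.51, while Cebpb rose by 0.53. Klf15 (0.01) and Rxra (0.10) did not pass the test.

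Genes of lipid storage rose, beside 30.2% rising, 22.8% falling and 2.42% called higher among all genes tested. All 16 tested members of a list of 17 for fatty acid uptake and storage rose, with a median of 3.45, and 13 of them were called. Of these, 5 (Cd36, Agpat9, Gpd1, Pck1 and Aqp7) were under 1 FPKM in each day 0 library, so the filter kept them for their day 7 level. Beside Fabp4, Gpd1 and Cd36 they included Agpat2 (5.06), Acsl1 (4.21), the lipoprotein lipase gene Lpl (3.46) and the last enzymes of triglyceride synthesis, Dgat1 (2.18) and Dgat2 (2.31). Agpat2 was at 5.56, 7.07 and 7.55 FPKM at day 0 and at 272, 364 and 168 FPKM at day 7. Of 14 tested members of a list of 17 for lipid droplets and lipolysis, 12 rose and 0 fell, 11 were called, and the median was 3.88. The filter kept 5 of the 11 in the same way (Plin1, Cidec, Mgll, G0s2 and Adrb3). The lipases that release fatty acids step by step rose, Pnpla2 by 4.77, Lipe by 4.32 and Mgll by 5.04, and the adrenergic receptor gene Adrb3 rose by 2.93. Plin3 (0.10), a droplet coat gene that is not particular to adipocytes, did not pass.

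Among 14 lipogenic genes 10 rose and 1, Elovl6, fell by 0.73, with a median of 1.89 and 8 called, of which Thrsp and Mlxipl were kept for their day 7 level. Thrsp (4.10) and the pyruvate carboxylase gene Pcx (3.24) rose most beside Mlxipl, the malic enzyme gene Me1 rose by 2.53, and Fasn by 1.88. Acly (-0.15) did not pass. Of 10 adipokine genes tested in a list of 12, 8 rose, 6 of them called, and Metrnl fell by 0.36. Adipoq, Retn, Cfd, Rbp4 and Nrg4 were kept for their day 7 level. Their median was 2.72, and Angptl4, an inhibitor of lipoprotein lipase, rose by 3.54. Lep, the leptin gene, was below the filter. In the list for insulin action and glucose transport, 10 of 12 genes rose and 2 fell, with a median of 1.23, and Slc2a4, Trarg1 and Igf1 were kept for their day 7 level. The insulin-dependent transporter gene Slc2a4 rose by 3.36, and Slc2a1, the ubiquitous transporter gene, fell by 0.27. These list counts stand beside 30.2% rising, 22.8% falling and 2.42% called higher among all genes tested.

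**Figure D3:**
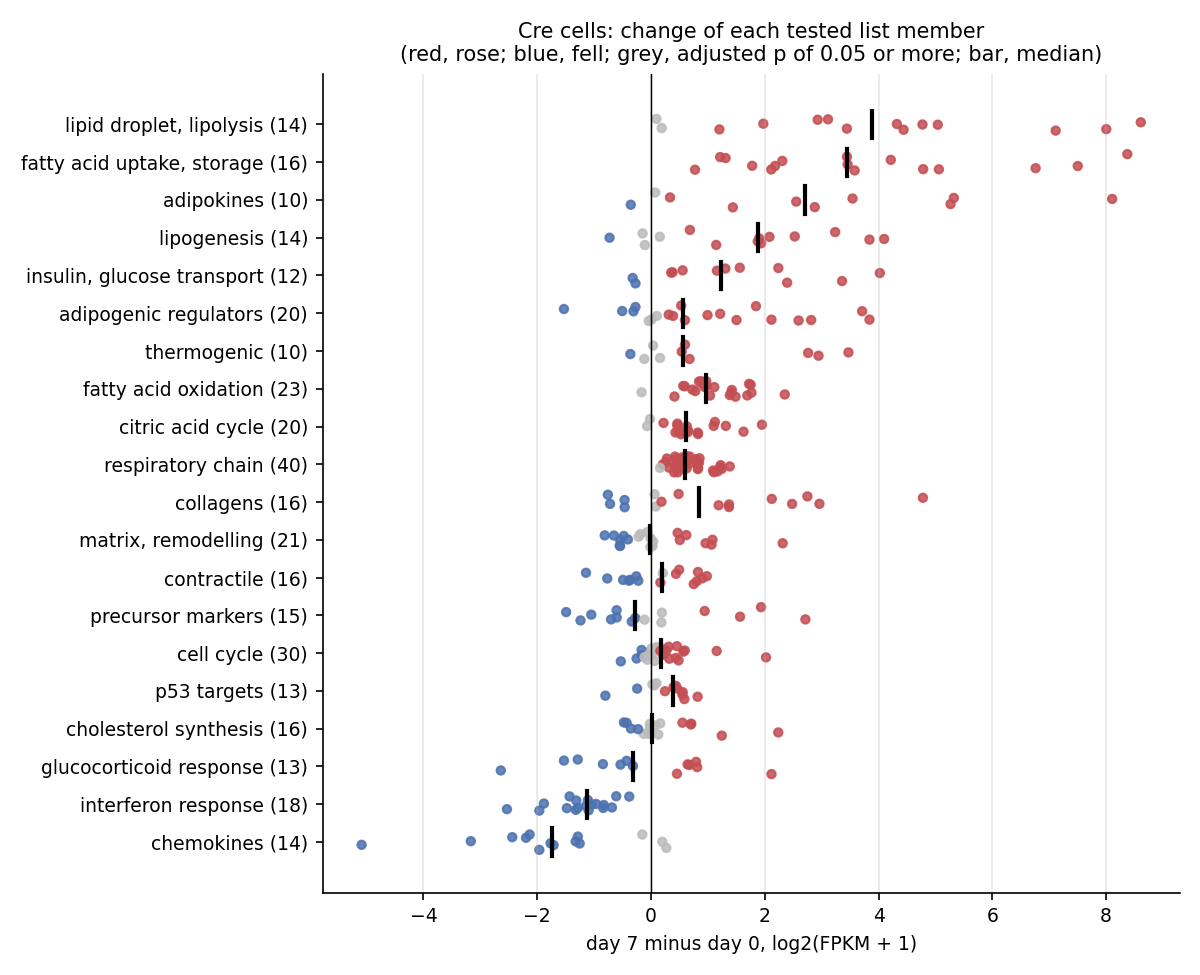
Change between day 0 and day 7 in Cre cells (x axis, log2(FPKM + 1)) of each tested member of 20 gene lists, with the number tested in brackets. Red members rose, blue members fell, grey members did not pass, and the black bar is the median; the lipid lists lie to the right, with medians of 3.88 and 3.45, and the interferon and chemokine lists to the left, with medians of -1.13 and -1.74.

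Genes of mitochondrial metabolism rose by less. For reference, 30.2% of all genes tested rose, 22.8% fell and 2.42% were called higher. Of 23 genes of fatty acid oxidation 22 rose and 0 fell, with a median of 0.98 and 5 called. Pex11a rose most (2.35), and the acyl-CoA dehydrogenase gene Acadl was at 28.0, 23.4 and 22.8 FPKM at day 0 and at 86.4, 104 and 65.0 FPKM at day 7 (1.72, SE 0.12). In the citric acid cycle 18 of 20 genes rose and 0 fell, with a median of 0.62. Idh3a (1.95) and Pdhb (1.63) were the 2 called. Of 40 respiratory chain and ATP synthase genes 39 rose and 0 fell, with a median of 0.59 and 0 called. Cycs, the cytochrome c gene, rose most (1.38) and was at 14.6, 16.6 and 16.8 FPKM and then at 47.3, 53 and 32.4 FPKM. Under median-of-ratios size factors 36 of the 40 rose, and under quantile normalization 38.

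Of a list of 22 thermogenic genes 12 did not reach the filter, among them Ucp1, Ppargc1a, Cidea, Cox8b and Dio2, and Ppara of the regulators did not reach it either. Ucp1 was at 0 FPKM in the 3 day 0 libraries and at 0.254, 0.133 and 0 FPKM at day 7. Ppargc1a was at 0.0597, 0.0196 and 0 FPKM and then at 0.531, 0.332 and 0.165 FPKM. Ppara was at 0.471, 0.275 and 0.266 FPKM and then at 0.764, 0.493 and 0.457 FPKM. The paper measured Ucp1 and Ppargc1a also under forskolin, which raises cyclic AMP, and the labels of these libraries name no forskolin. Of the 12, 7 had at most 3 reads in each of the 6 libraries, and 5 (Ucp1, Ppargc1a, Otop1, Cpt1b and Fgf21) had more in at least 1. Of the 10 tested, 6 rose and 1, Zic1, fell by 0.36, with a median of 0.57. Called higher were Kcnk3 (3.47), the fatty acid elongase gene Elovl3 (2.94) and the coactivator gene Ppargc1b (2.76). All 3 were under 1 FPKM in each day 0 library, so the filter kept them for their day 7 level. Prdm16 (-0.12) and Cox7a1 (0.16) did not pass. Among all genes tested 30.2% rose, 22.8% fell and 2.42% were called higher.

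Genes of precursors and of the matrix moved both ways, as did the genes tested as a whole (30.2% rising and 22.8% falling). Of 15 precursor markers tested in a list of 18, 8 fell and 4 rose, with a median of -0.28. Sfrp2 fell by 1.49, Cd34 by 1.24, Ly6a by 1.05 and Pdgfra by 0.61. Against them, Thy1, a surface marker of fibroblasts and precursors (chr9:43851467-43856662, plus strand, mm9), was at 11.2, 11.0 and 10.7 FPKM at day 0 and at 80.3, 68.8 and 84.6 FPKM at day 7. It rose by 2.71 (SE 0.12, limma adjusted p = 9.56e-14). Dlk1, an inhibitor of adipogenesis, was at 1.82, 3.33 and 2.68 FPKM and then at 11.8, 13.0 and 13.0 FPKM, a rise of 1.93 (SE 0.13). In Thy1 replicate 3 was the highest and replicate 2 the lowest of the day 7 libraries, the reverse of Fabp4 and Cidec. In Dlk1 replicate 1 was the lowest, and replicates 2 and 3 were equal at the precision given.

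Of 16 collagen genes tested 10 rose and 4 fell, with a median of 0.84 and 5 called. The basement membrane collagens rose, Col15a1 by 4.78, Col4a1 by 2.75 and Col4a2 by 2.48, and so did Col6a3 (2.96). Col4a1 was at 41.9, 50.6 and 53.1 FPKM at day 0 and at 332, 355 and 306 FPKM at day 7. The fibrillar Col1a1 (0.46) and Col1a2 (0.72) fell by these values. Of 21 other matrix genes 7 rose and 7 fell, with a median of -0.01, and 1, Mgp (2.31), was called higher. Over all genes tested 30.2% rose, 22.8% fell and 2.42% were called higher. Among 16 contractile genes 8 rose and 7 fell, with a median of 0.19 and 0 called. The smooth muscle genes Acta2 (0.90), Tagln (0.98) and Myl9 (0.83) rose, whereas Cyr61 fell by 1.14 and Tpm1 by 0.77. Mcam, a marker of mural cells, rose by 3.15, and the summed FPKM of 6 mural markers was 10.3 to 13.4 at day 0 and 31.7 to 45.7 at day 7, with Kcnj8 at 0. Of the 6 only 2 were tested, and the other, Notch3, rose by 0.72, while Rgs5, Cspg4 and Myh11 were below the filter. The median change of the 2 was 1.93 in Cre, 2.14 in ctrl, 1.85 in Cre + NFIA and 1.34 in Cre + NFIA Δpro#3. A part of mural cells in the change of collagen and contractile genes was not tested. Of 24 skeletal muscle genes 3 were tested, and Myod1 was at 0 in all 6 libraries.

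All 18 genes of an interferon response list fell, with a median of -1.13, and 3 were called lower. Among all genes tested 22.8% fell and 0.501% were called lower. Mx1 was at 83.4, 87.5 and 77.0 FPKM at day 0 and at 13.5, 13.0 and 13.8 FPKM at day 7 (-2.53, SE 0.15, limma adjusted p = 9.61e-12). Cxcl10, a chemokine induced by interferon, was at 513, 522 and 535 FPKM and then at 139, 137 and 125 FPKM (-1.96, SE 0.08), and Ifi44 fell by 1.88. The other members fell by less. The 18 genes fell under both other scalings and with each library left out in turn. Chemokines were gathered by symbol after Cxcl5 and Cxcl1 had been seen, so their count is a description. Of 36 listed, 14 were tested, of which 11 fell, 0 rose and 8 were called lower, with a median of -1.74. Beside those named above, Ccl2 fell by 2.13, Ccl7 by 1.77 and Ccl5 by 1.71, and Ccl11 (0.20) did not pass. Among the called lower genes, also named after their values were seen, were the cytokine gene Il6, the receptor gene Tlr2, and Nfkbiz, Bcl3 and Socs3.

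In a list of 13 genes that respond to glucocorticoids 6 rose and 7 fell, with a median of -0.32. Dexamethasone was in the first medium and not in the later one. Lcn2 fell by 2.64, Cebpd by 1.53 and Sgk1 by 1.29, whereas Fkbp5 rose by 0.64 and Tsc22d3 by 0.79. Of 30 cell cycle genes 15 rose and 5 fell, with a median of 0.17, and with median-of-ratios size factors these counts were 10 and 6. The cyclin D1 gene Ccnd1 was at 3.47, 4.12 and 4.02 FPKM at day 0 and at 18.5, 18.3 and 19.5 FPKM at day 7 (2.02, SE 0.10), and it was the 1 called. Mcm6 fell by 0.53 and Mki67 rose by 0.57. Of 13 p53 target genes 8 rose and 2 fell, with a median of 0.40 and 0 called. In cholesterol synthesis 5 of 16 rose and 4 fell, beside 30.2% and 22.8% of all genes tested. Insig1 (2.24) was called, and the median of 0.03 was -0.02 with size factors and -0.01 with quantile normalization. Of 11 genes of the unfolded protein response and ATF4 7 rose and 2 fell, with a median of 0.21.

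Of the nuclear factor I genes, Nfia rose by 0.62 (SE 0.07, limma adjusted p = 3.06e-07) and Nfib by 0.82 (SE 0.15, limma adjusted p = 9.23e-05). Nfib was at 1.96, 2.32 and 2.37 FPKM at day 0 and at 4.67, 5.85 and 3.73 FPKM at day 7. Nfix fell by 0.18 (limma adjusted p = 0.0267), and Nfic (0.05) did not pass. None of the 4 was called at 3-fold. The value of Nfia counts reads of the whole gene, so its rise is not a measure of NFIA protein.

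The day 7 libraries differed from each other more in the genes that rose than in those that fell, by the SDs given here. The 285 higher genes took 0.489, 0.503 and 0.520% of the reads at day 0 and 4.32, 5.13 and 3.08% at day 7 (replicates 1, 2 and 3). In 239 of the 285 genes replicate 2 was the highest day 7 library, and in 245 replicate 3 was the lowest. The median SD of log2(FPKM + 1) over the 3 libraries was 0.39 at day 7 and 0.14 at day 0 in these genes, against 0.10 and 0.11 over all genes tested. In the 59 lower genes it was 0.14 and 0.11, and the highest library was replicate 1 in 18, replicate 2 in 14 and replicate 3 in 27. They took 1.25, 1.20 and 1.20% of the reads at day 0 and 0.283, 0.266 and 0.285% at day 7. Adding 1 FPKM before the logarithm narrows the SDs of genes at low levels, and the SDs were not compared at matched levels. The 5 largest SDs among all genes tested were in short RNAs (Mir145a, Mir7026, Snord93, Snord69 and Mir5622), which few reads cover. Among the higher genes Thrsp and Orm1 had large SDs, of 0.95 and 0.79, and are named here after their values were seen. Thrsp was at 21.3, 28.7 and 7.48 FPKM at day 7, and Orm1, an acute phase gene of liver and fat, at 22.2, 37.3 and 11.9 FPKM. A smaller share of cells that became adipocytes and less adipocyte RNA per cell cannot be told apart in bulk libraries. Without replicate 3 of day 7 there were 391 called genes and without replicate 2 there were 329, of which 335 and 314 were among the 344.

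**Figure D4:**
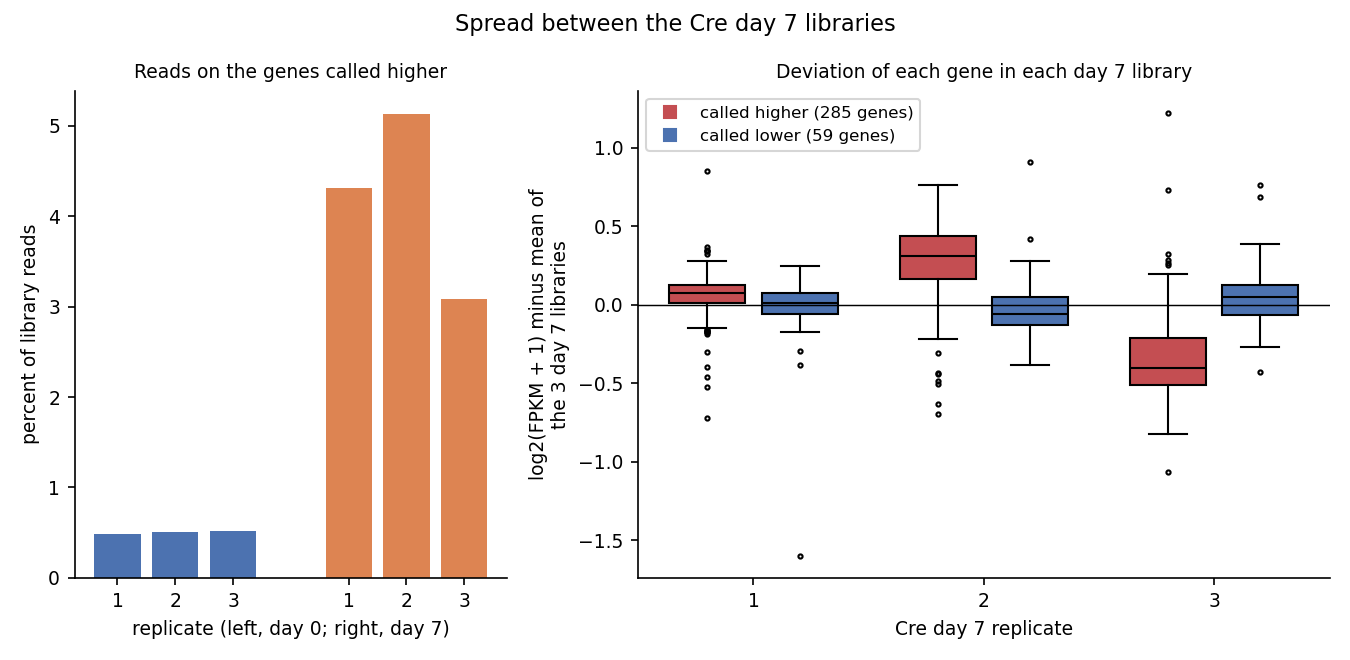
Left, percent of each Cre library's reads on the 285 genes called higher, by replicate and day; right, deviation of each called gene in each day 7 library from its mean over the 3 (log2(FPKM + 1); box, quartiles; line, median; whiskers, 1.5 quartile ranges). The medians for the higher genes are 0.07, 0.31 and -0.40 in replicates 1, 2 and 3, whereas those for the lower genes are 0.01, -0.06 and 0.05.

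The other cell types were set beside Cre to show where its change differed. Over the 285 higher genes the median change was 2.31 in Cre, 3.52 in ctrl, 3.39 in Cre + NFIA and 1.28 in Cre + NFIA Δpro#3. These genes were chosen by their change in Cre, so the medians are a description. In ctrl 283 of them moved the same way and 250 (87.7%) were called higher. Conversely, of the 713 genes called higher in ctrl, 251 (35.2%) were called in Cre, a count over the 12640 genes that pass the filter over all 24 libraries, whereas the 250 are of the 285 found among the 11766. Of the 59 lower genes 54 (91.5%) were called lower in ctrl, which is 14.9% of the 362 called lower there. In Cre + NFIA Δpro#3 102 of the 285 were called higher (35.8%), which is 70.8% of the 144 called there. The tests of the difference between day effects were run on 12640 genes with an FPKM of at least 1 in at least 3 of the 24 libraries.

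Against ctrl, lipid and mitochondrial genes had a more negative change in Cre, and precursor and matrix genes a more positive one. In all 194 genes (1.53%) differed by at least 3-fold, 34 (0.269%) with a more positive change in Cre and 160 (1.27%) with a more negative one. This split depended on the method. With voom on the recovered reads it was 215 and 231, and 147 of the 194 were shared. A pseudocount of 0.1 gave 178 and 279, and a pseudocount of 5 gave 6 and 70. Of the 285 higher genes, 85 had a more negative change in Cre and 5 a more positive one. Fabp4 went from 12.2 ± 1.08 to 17544 ± 1571 FPKM in ctrl (SD, n = 3) and from 13.6 ± 4.54 to 4963 ± 1881 FPKM in Cre. Its change was more negative in Cre by -2.01 (SE 0.43, limma adjusted p = 0.00063). Adipoq differed by -2.17 (SE 0.44, limma adjusted p = 0.000388). Pparg went from 3.87 ± 0.585 to 52.0 ± 2.5 FPKM in ctrl and from 2.84 ± 0.614 to 22.4 ± 5.55 FPKM in Cre, a difference of -0.85 (SE 0.25, limma adjusted p = 0.0083) that passed the test but was under 3-fold.

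Lists differed in the same tests at an adjusted p under 0.05, which 6224 (49.2%) of the 12640 genes passed, 3753 (29.7%) with a more positive and 2471 (19.5%) with a more negative change in Cre. With size factors this split turned to 2837 and 3289. All 16 genes of fatty acid uptake and storage, 22 of 23 of fatty acid oxidation, all 20 of the citric acid cycle and all 40 of the respiratory chain had a more negative change in Cre, and 0 of them a more positive one. The median change of the respiratory chain list was 0.59 in Cre and 1.41 in ctrl, and that of fatty acid oxidation 0.98 and 2.26. More positive in Cre were 13 of 15 precursor markers, 20 of 21 matrix genes, 15 of 16 contractile genes and 14 of 18 interferon genes, with 0 more negative. The median of the interferon list was -1.13 in Cre and -1.92 in ctrl. Thy1 went from 20.9 ± 1.82 to 45.8 ± 4.89 FPKM in ctrl, and its change was more positive in Cre by 1.62 (SE 0.17, limma adjusted p = 2.33e-07).

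Cre + NFIA differed from Cre in 361 genes (2.86%), 215 (1.7%) with a more positive change in Cre + NFIA and 146 (1.16%) with a more negative one, a split that voom on the recovered reads turned to 323 and 466. Fabp4 reached 14618 ± 115 FPKM at day 7 in Cre + NFIA, and its difference of 1.20 (SE 0.43, limma adjusted p = 0.0247) was under 3-fold. That of Pparg was 0.50 (SE 0.25) and did not pass (limma adjusted p = 0.112). This compares the changes between days, and not the levels of Pparg at day 7. At an adjusted p under 0.05 alone, 6183 genes (48.9%) passed, 2378 (18.8%) more positive and 3805 (30.1%) more negative in Cre + NFIA, and with size factors 3158 and 2914. More positive were 15 of 16 genes of fatty acid uptake and storage, 22 of 23 of fatty acid oxidation and 35 of 40 of the respiratory chain, whereas 20 of 21 matrix genes and 13 of 15 precursor markers were more negative. Thy1 rose from 36 ± 1.10 to 46.9 ± 0.528 FPKM there, a difference of -2.34 (SE 0.17, limma adjusted p = 9.12e-10). Cbr2, a carbonyl reductase gene, fell in Cre from 19.1 ± 0.840 to 2.99 ± 0.589 FPKM and went from 12.4 ± 0.860 to 185 ± 10.2 FPKM in Cre + NFIA.

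Cre + NFIA Δpro#3 differed from Cre in 97 genes (0.767%), 4 (0.0316%) more positive and 93 (0.736%) more negative. Voom on the recovered reads called 130, 28 more positive and 102 more negative, of which 47 were among the 97. Without replicate 2 of Cre day 7 there were 60, and without replicate 1 of Cre + NFIA Δpro#3 day 7 there were 61. Fabp4 went from 26.3 ± 4.05 to 1042 ± 477 FPKM there, a difference of -3.24 (SE 0.43, limma adjusted p = 4.36e-05). Pparg reached 9.02 ± 2.52 FPKM at day 7, a difference of -1.17 (SE 0.25, limma adjusted p = 0.00268). At an adjusted p under 0.05 alone, 2296 genes (18.2%) passed, 985 (7.79%) more positive and 1311 (10.4%) more negative. More negative were 14 of 16 genes of fatty acid uptake and storage, 21 of 23 of fatty acid oxidation and 34 of 40 of the respiratory chain. More positive were 16 of 16 contractile and 13 of 21 matrix genes. Of the interferon list 0 of 18 passed in either direction. The 3 comparisons all use the Cre libraries, so their values are not independent of each other.

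**Figure D5:**
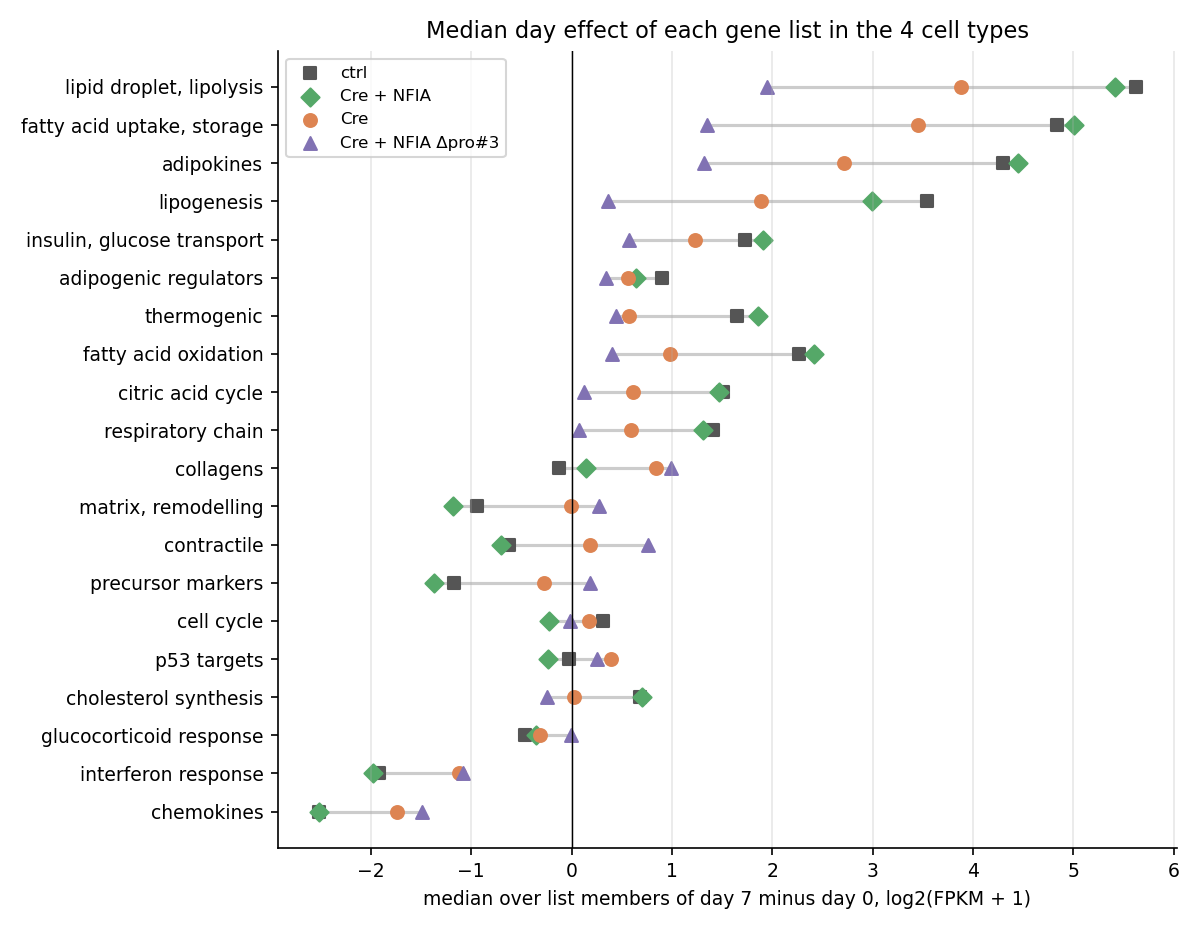
Median change between day 0 and day 7 (x axis, log2(FPKM + 1)) over the tested members of each of 20 gene lists, with 1 point per cell type and a grey line over their range. For fatty acid uptake and storage the medians are 4.84 in ctrl, 3.45 in Cre, 5.0 in Cre + NFIA and 1.35 in Cre + NFIA Δpro#3, and for matrix genes -0.94, -0.01, -1.18 and 0.27.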

How the data were processed

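RNA-seq was available from 4 cell types on 2 days, with 3 libraries in each of 8 groups. Libraries were made with a stranded mRNA kit, and per the labels and methods the authors aligned reads with STAR 2.5.3a to mm9, kept unique alignments and counted them on the matching strand. The authors deposited FPKM values per gene, 1 file per library. FPKM times length in kilobases summed to 1000000 in each file, and 100% of values were whole reads within a tolerance of 0.02 reads. Near-identical genes are therefore uncertain, and counting error at low values is set by the 7.73 to 11.99 M reads of the Cre libraries. Libraries of the same Cre group differed by more than counting error. Their chi-square per degree of freedom was 3.50 to 13.0, where counting error alone gives about 1.

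Values were tested as log2(FPKM + 1) with limma 3.58.1 (R 4.3.3) with a mean-variance trend, fitting 8 group means over all 24 libraries, with Benjamini-Hochberg adjustment over all genes tested. Each gene's spread was shared over the 8 groups, so SEs may be too small where the libraries of a group spread widely. With only the 6 Cre libraries in the model, 346 genes were called between the days. Fold changes on the log2(FPKM + 1) scale understate those of low genes. A gene was called at an adjusted p under 0.05 and at least 3-fold. Differences between cell types are differences of day effects in the same model, two-sided. Genes needed an FPKM of at least 1 in at least 3 of 6 libraries (24 for differences). Gene lists and members were chosen with earlier results of these data known. Genes were named if the study is about them, if among the 15 largest called changes each way without overlap, if among up to 4 largest called members of a list each way, if among the 5 largest called differences each way, or if among the 5 largest SDs at day 7; other list members are given as examples. The main model did not pair libraries by replicate number. Deviations of same-numbered libraries had correlations of 0.042, -0.023 and -0.063. These cannot show whether such libraries shared a culture or a day, which the labels do not give. Alternatives changed the pseudocount, filter, scaling, trend, fold threshold, block, model and libraries, and voom was run on the recovered reads. Of the symbols, 26 looked like dates and 4 rows repeated a symbol. Coordinates of genes are mm9, and promoters are from RefSeq GRCm38.p6. Results for some genes are not reported here.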

Additional observations from a re-analysis of the deposited data

Results flagged for a closer look

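Genes whose day effect differed between cell types, by the test of that difference with limma, are given as log2 differences. They are among the up to 5 largest called differences each way in genes of at least 200 bases. Against ctrl, the change in Cre was more negative for Cbr2 (-3.89), Cox8b (-3.42), Angptl8 (-3.39), Nos3 (-3.28) and Ces1d (-3.26), and more positive for Nov (2.45), Serpinb1a (2.11), Gpnmb (1.98) and Gxylt2 (1.95). Gpnmb went from 29.8 to 69.5 FPKM in Cre and from 25.1 to 14.2 FPKM in ctrl (means of 3 libraries).

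Against Cre, the change in Cre + NFIA was more positive for Cox8b (6.59), Cbr2 (6.15), Ces1d (5.23), Cyp2e1 (4.87) and Hoxb13 (4.63), and more negative for Clec3b (-2.87), Myoc (-2.86), Serpinb1a (-2.66), Ccnd1 (-2.60) and Ier5l (-2.57). Ccnd1 went from 3.87 to 18.8 FPKM in Cre and from 19.3 to 12.6 FPKM in Cre + NFIA.

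The change in Cre + NFIA Δpro#3 was more negative than in Cre for Fabp4 (-3.24), Orm1 (-3.14), Cidec (-2.68), Hp (-2.68) and G0s2 (-2.67), and more positive for Igfbp3 (1.89) and Cemip (1.68). With voom on the recovered reads the differences of Cidec and G0s2 did not pass (limma adjusted p = 0.30 and 0.24). Hp went from 25.7 to 100.9 FPKM in Cre and from 40.7 to 24.7 FPKM in Cre + NFIA Δpro#3.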

How the results depend on the processing

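The 344 called genes became 557 with a pseudocount of 0.1, 146 with 5, 569 with voom, 890 at 2-fold and 6232 with no fold threshold. The 194 genes that differed from ctrl became 457, 76, 446, 1053 and 6224. The 361 of Cre + NFIA became 748, 140, 789, 1430 and 6183, and 225 with a mean FPKM of at least 5. The 97 of Cre + NFIA Δpro#3 became 218, 27, 130, 327 and 2296 in that order, and voom shared 47 with the 97. With no fold threshold the 4 counts were 6281, 6126, 6072 and 2183 with size factors, 6478, 6020, 6279 and 2414 with quantile normalization, and 6122, 6114, 6097 and 2218 with the replicate block. At 3-fold the replicate block gave 345, 198, 360 and 97. Leaving out 1 library gave 329 to 391, 147 to 254, 307 to 435 and 60 to 139. Voom split the day effect into 452 higher and 117 lower. It split the difference from ctrl into 215 more positive and 231 more negative, and that of Cre + NFIA into 323 and 466. Size factors split the latter into 260 and 106. With no fold threshold the difference from ctrl split into 3753 and 2471 as deposited and 2837 and 3289 with size factors, and that of Cre + NFIA into 2378 and 3805 and then 3158 and 2914. Mbp turned to -0.30 with quantile normalization. Of the other values of single genes, 1645 kept their direction and side of the threshold, 19 no longer passed and 9 newly passed. Alternatives with no fold threshold and another scaling or block, and the filter on genes of at least 200 bases (330 called), were chosen after seeing the data. The cause of these shifts was not tested.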

Other observations

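Replication-dependent and related histone genes were looked at after their values were seen. Of 69 histone cluster genes listed 19 were tested, of which 18 rose, 0 fell and 11 were called higher between day 0 and day 7 in Cre. Of all genes tested 30.2% rose, 22.8% fell and 2.42% were called higher. Hist1h4h, Hist1h1d, Hist1h3g, Hist1h3c, Hist1h4k, Hist1h1b and Hist1h2bg among the called genes were under 1 FPKM in each day 0 library. So were Hist1h4a, Hist1h1a, Hist1h3i and Hist1h4d among the others. The filter kept these genes for their day 7 level. The median change of the 19 was 1.76, beside 2.15 in ctrl, 1.70 in Cre + NFIA and 0.60 in Cre + NFIA Δpro#3. Their summed FPKM was 22.3, 33.4 and 36.1 at day 0 and 221, 221 and 166 at day 7. Hist1h2bc was at 7.37, 8.02 and 9.38 FPKM and then at 73.4, 73.4 and 53.8 FPKM (2.87), and Hist1h1c was at 5.97, 7.85 and 8.80 FPKM and then at 63.0, 65.1 and 47.2 FPKM (2.80). These genes have near-identical copies and unique alignments were counted, so values of single members are uncertain. Libraries were made with a stranded mRNA kit, so the values cover only the histone transcripts that it captures. Whether the total of histone transcripts changed was not tested.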
